A study of Mus musculus with 46 samples.

Results

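Glia secrete proteins that make, mature or restrain synapses, and 8 genes for such proteins were followed here in the developing mouse hippocampus. They are the thrombospondins Thbs1 and Thbs2, the matricellular proteins Sparc and Sparcl1, the glypicans Gpc4, Gpc5 and Gpc6, and the BMP antagonist Chrdl1. The 8 genes were taken by symbol from the 52636 rows of the expression table, and 7 of them are among the 13244 genes tested. The members were selected on the known LB against CTL expression differences of these libraries, Thbs1 among the largest increases, so their LB against CTL values are given as a description with no test.

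RNA from the left hippocampus of Balb/cByj pups at P17 was sequenced, with 1 library per pup and 46 libraries in all. The groups were 15 control pups (CTL, 9 female and 6 male), 16 pups reared with limited bedding (LB, 9 female and 7 male) and 15 pups exposed to unpredictable postnatal stress (UPS, 7 female and 8 male). CTL litters had ample bedding and a nestlet from birth, and LB litters had little bedding and no nestlet. The UPS procedure is not described in the sources used here beyond its name, and all pups were anesthetized with chloral hydrate before the hippocampus was taken. The labels name no transgene or deletion. Pups of the same litter are among them, the labels do not say which, and the p-values treat all pups as independent.

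Thrombospondins are large secreted proteins through which astrocytes start new excitatory synapses. They do so through the calcium channel subunit encoded by Cacna2d1, and the synapses they start lack functional AMPA receptors. Sparcl1, also called hevin, bridges neurexins and neuroligins across the synaptic cleft, and Sparc opposes it. Gpc4 and Gpc6 recruit AMPA receptors to young synapses, and Chrdl1 promotes the later switch to mature AMPA receptor subunits.

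Expression was measured as TPM, in which reads are divided by the length of the transcript and then scaled to one fixed sum per library, so levels may be compared between genes. TPM keeps no read depth, and the reads behind a value are unknown. Between 21150 and 24707 genes were above 0 TPM in a library, and mitochondrial genes took 9.52% to 14.2% of the TPM. Xist was between 113 and 206 TPM in the female libraries and at or below 0.0319 TPM in the male ones. The female UPS pup 2 stood apart: its median correlation with its own group was 0.938, against 0.971 for the next lowest pup. Its pericyte and smooth muscle markers summed to 155 TPM, against 233 to 361 TPM in the other 45 pups, and its blood markers summed to 823 TPM, against 236 to 615 TPM. Results that rest on it are given with and without it. The female UPS pup 1 has a title that says UPS and a characteristic that says LB, and was kept as UPS.

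The levels of the 8 genes spanned about 3 orders of magnitude. Averaged over the 46 pups, Sparcl1 was at 1929 TPM, Sparc at 469 TPM, Gpc5 at 38.4 TPM, Gpc4 at 22.9 TPM, Gpc6 at 6.12 TPM, Chrdl1 at 4.26 TPM, Thbs1 at 3.10 TPM and Thbs2 at 2.18 TPM. The first 4 steps of this order held in 46 of 46 pups. The low genes were closer together. Gpc6 was above Chrdl1 in 40 pups, Chrdl1 above Thbs1 in 40 and Thbs1 above Thbs2 in 42, so neighbours among these 4 genes overlapped.

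**Figure D1:**
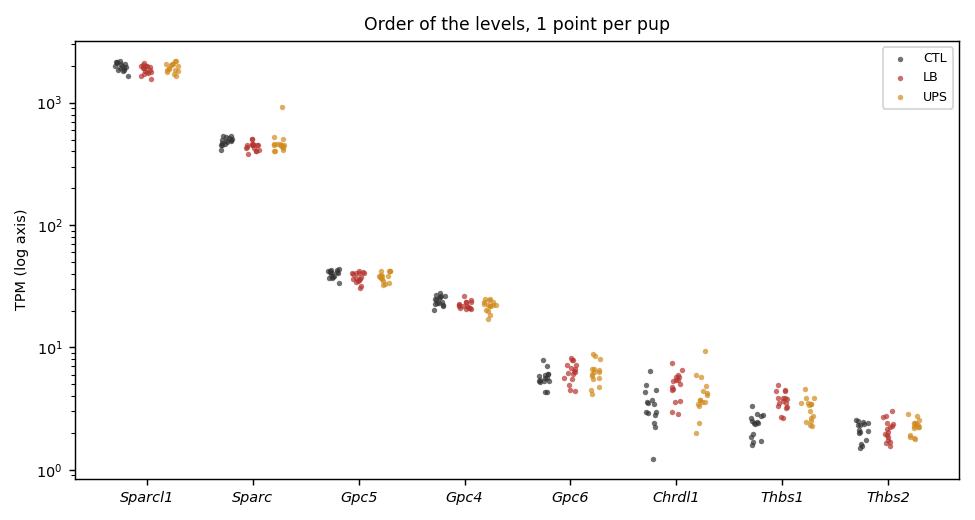
Level of each gene in each of the 46 pups, in TPM on a log axis, coloured by rearing group (CTL, LB, UPS), 1 point per pup. Sparcl1 and Sparc lie above 383 TPM in every pup, whereas Gpc6, Chrdl1, Thbs1 and Thbs2 lie between 1.23 and 9.30 TPM and overlap.

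Thbs1 lies on chromosome 2 from 118111876 to 118127133 of GRCm38, on the plus strand, and Thbs2 on chromosome 17 from 14665500 to 14694235, on the minus strand. Reads of the pair could be confused only where their sequences match, so the coding stretch that holds their longest identical run is shown for both. It lies in exon 15 of 22 of each transcript, at chr2:118120861-118120950 for Thbs1 and chr17:14676252-14676341 for Thbs2, and is written in the direction of the transcript from GENCODE M21 with the identical run in capitals.
Thbs1: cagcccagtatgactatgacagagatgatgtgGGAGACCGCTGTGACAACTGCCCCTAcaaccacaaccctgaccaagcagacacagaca
Thbs2: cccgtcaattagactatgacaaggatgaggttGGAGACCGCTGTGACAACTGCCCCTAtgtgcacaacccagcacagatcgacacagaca
The identical run is 26 bases long, and 68 of the 90 bases shown match. The libraries were read as pairs of 100 bases, so no single read lies wholly within an identical coding run of the pair. The longest identical coding runs of the other related pairs were shorter, at 14 bases for Sparc and Sparcl1 and between 12 and 17 bases for the glypicans. Genes annotated on the opposite strand within Thbs1, Sparcl1, Gpc5 and Gpc6 averaged at most 0.507 TPM.

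Thbs1 was low in CTL pups and higher in LB and UPS pups, and the groups overlapped almost fully in its paralogue Thbs2. In CTL, Thbs1 ranged from 1.61 to 3.33 TPM with a median of 2.42 TPM. In LB, Thbs1 ranged from 2.67 to 4.93 TPM with a median of 3.75 TPM. In UPS, Thbs1 ranged from 2.30 to 4.60 TPM with a median of 3.38 TPM. All 16 LB pups were above the CTL median and 11 of the 16 were above every CTL pup, whereas 8 of the 15 UPS pups were above every CTL pup and 2 were below the CTL median. The mean of Thbs1 in CTL was 2.36 ± 0.507 TPM (SD, n = 15), that in LB 3.72 ± 0.635 TPM (SD, n = 16) and that in UPS 3.18 ± 0.668 TPM (SD, n = 15). The ratio of mean TPM was 1.57 for LB over CTL and 1.35 for UPS over CTL. On the log2(TPM + 1) scale, which understates changes of low genes, the LB difference of Thbs1 was 0.50 (standard error 0.078), the 34th largest increase among the 13244 genes.

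Thbs1 rose in UPS by 0.33 on the log2(TPM + 1) scale (standard error 0.083, limma adjusted p = 0.012). This comparison shares its CTL pups with the LB comparison that chose Thbs1, so it is not independent of that choice. In that comparison, 10% of the genes tested passed the threshold, 5.59% as higher and 4.44% as lower, and Thbs1 was the only one of the 7 tested members to pass. Thbs1 reached the minimum mean of 3 TPM only in LB and UPS, so it could enter the test only by being higher there. With no minimum on TPM, its UPS difference had a limma adjusted p of 0.021. Without the female UPS pup 2, it was 0.30 (limma adjusted p = 0.013), and without the female UPS pup 1, it was 0.32 (limma adjusted p = 0.019). Thbs1 did not pass between LB and UPS, where the difference was 0.17 (95% interval 0.012 to 0.33, limma adjusted p = 0.36). Only 0.0453% of the genes tested passed in that comparison (0.0151% as higher and 0.0302% as lower), and no member did.

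Both sexes showed the Thbs1 difference. In females, Thbs1 averaged 2.49 ± 0.509 TPM (SD, n = 9) in CTL, 3.74 ± 0.686 TPM (SD, n = 9) in LB and 3.43 ± 0.736 TPM (SD, n = 7) in UPS. In males, it averaged 2.17 ± 0.481 TPM (SD, n = 6) in CTL, 3.68 ± 0.615 TPM (SD, n = 7) in LB and 2.96 ± 0.553 TPM (SD, n = 8) in UPS. The LB difference was 0.44 in females (standard error 0.10) and 0.57 in males (standard error 0.12), and the UPS difference was 0.34 (standard error 0.11) and 0.32 (standard error 0.12). The test of a different UPS effect in the sexes gave -0.019 for males minus females (95% interval -0.36 to 0.32, limma adjusted p = 0.99).

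Thbs2, the second thrombospondin of immature astrocytes, stayed near 2 TPM throughout. It ranged from 1.51 to 2.57 TPM in CTL (median 2.11 TPM), from 1.56 to 3.05 TPM in LB (median 2.10 TPM) and from 1.80 to 2.85 TPM in UPS (median 2.30 TPM). The 3 groups overlapped almost fully. Thbs2 missed the minimum mean of 3 TPM in each group. In a fit with no minimum, the UPS difference from CTL was 0.089 (95% interval -0.038 to 0.22, limma adjusted p = 0.48), and the LB difference was 0.027 (standard error 0.070). The ratio of Thbs1 to Thbs2 within a pup, which does not depend on how a library was scaled, had a median of 1.12 in CTL, 1.64 in LB and 1.31 in UPS. It was above 1 in 13 of 15 CTL pups, 16 of 16 LB pups and 13 of 15 UPS pups.

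**Figure D2:**
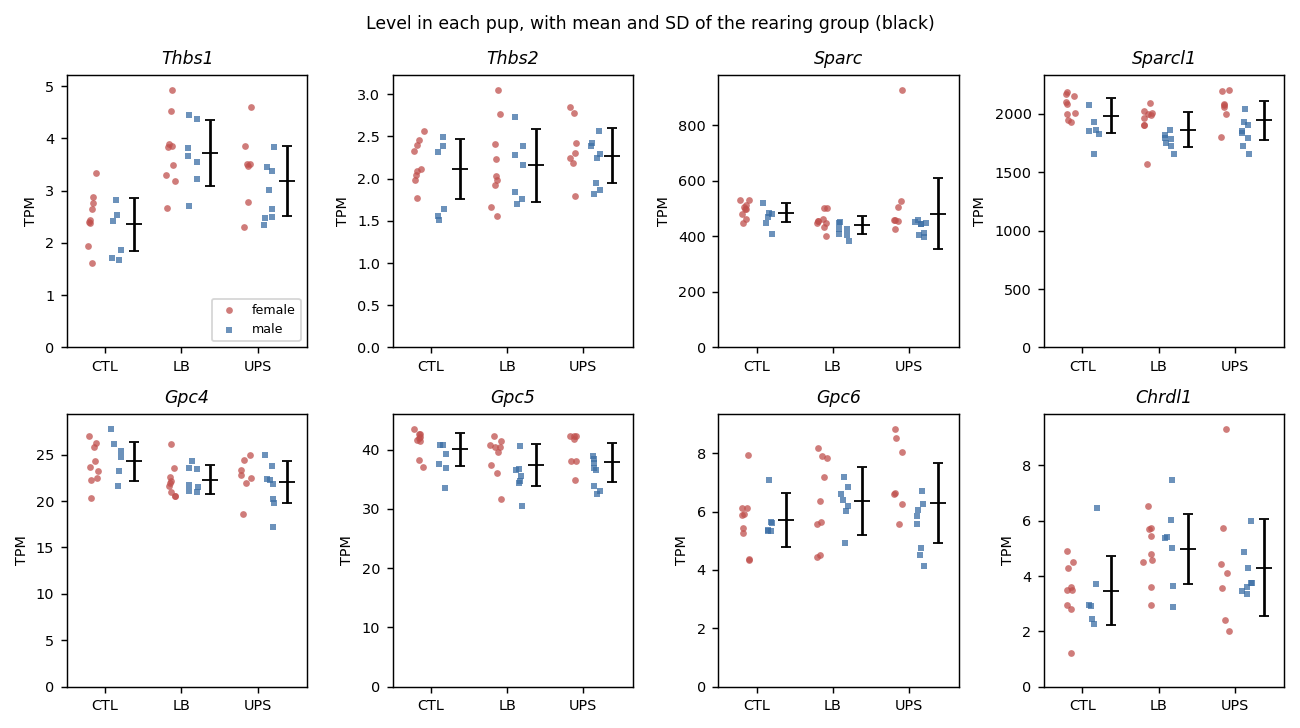
TPM of the 8 genes in each pup by rearing group, females as red circles and males as blue squares, with the group mean and SD in black and each axis starting at 0. For Thbs1, 11 of 16 LB pups and 8 of 15 UPS pups lie above every CTL pup, and in Sparc a single UPS pup lies at 928 TPM.

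Of the rest of the thrombospondin family, Thbs3 was the most abundant and did not pass in LB (0.057, limma adjusted p = 0.75) or UPS (-0.023, limma adjusted p = 0.92). Thbs4 and Comp, which encodes cartilage oligomeric matrix protein, were below the minimum in every group. The families and partners of the 8 genes were listed by their role, with earlier results of these data known, so nothing is read from their counts. Of all genes tested, 7.54% passed in LB, 3.71% as higher and 3.84% as lower. Of 13 listed receptors and partners, 9 were tested, and 2 passed as higher in LB and 2 in UPS, where 5.59% of all genes did. In both comparisons, which share their CTL pups, these were Cacna2d3, a calcium channel subunit of the family that binds thrombospondin, and the integrin subunit Itgb1. Cacna2d3 went from 111 ± 9.39 TPM in CTL to 120 ± 9.25 TPM in LB (0.12, limma adjusted p = 0.034) and 121 ± 10.05 TPM in UPS (0.14, limma adjusted p = 0.024). Itgb1 went from 78.7 ± 7.24 TPM in CTL to 84.2 ± 6.21 TPM in LB (0.11, limma adjusted p = 0.043) and 85.0 ± 6.49 TPM in UPS (0.14, limma adjusted p = 0.0099). Cacna2d1, the synaptogenic receptor itself, was at 112 ± 24.1, 96.6 ± 19.3 and 104 ± 30.1 TPM in CTL, LB and UPS and passed in neither comparison (limma adjusted p = 0.35 in LB and 0.68 in UPS). The median difference of the 9 receptors was -0.0012 in LB and -0.015 in UPS, against 0.0051 and -9.1e-05 over all genes tested.

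Sparc, on chromosome 11 from 55394500 to 55423183, encodes the secreted antagonist of hevin and was lower in LB pups. It ranged from 409 to 530 TPM in CTL, with a median of 485 TPM, and from 383 to 502 TPM in LB, with a median of 449 TPM. Of the 16 LB pups, 14 were below the CTL median and 4 below every CTL pup, so the groups overlapped. The mean of Sparc was 486 ± 33.8 TPM (SD, n = 15) for CTL pups and 441 ± 32.9 TPM (SD, n = 16) for LB pups, with a log2 difference of -0.14 (standard error 0.035). The LB difference was -0.12 in LB females (standard error 0.045) and -0.15 in LB males (standard error 0.053).

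In UPS, Sparc depended on a single pup. It ranged from 399 to 928 TPM with a median of 452 TPM, and the highest value belonged to the female UPS pup 2, the next highest pup being at 526 TPM. The UPS mean was 482 ± 128 TPM (SD, n = 15) with this pup and 450 ± 34.7 TPM (SD, n = 14) without it. The log2 difference from CTL was -0.024 (standard error 0.071, limma adjusted p = 0.86) with it and -0.094 (standard error 0.036, limma adjusted p = 0.071) without it. Neither passed the threshold. In the same pup, the matricellular genes Cyr61 and Ctgf were at 97.6 and 86.4 TPM, against 3.42 to 13.4 TPM and 2.51 to 9.61 TPM in the others, and its astrocyte markers summed to 3042 TPM, against 3222 to 4258 TPM. The part of these genes and cells in its Sparc level was not tested.

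Sparcl1, on chromosome 5 from 104079111 to 104113733, was the most abundant of the 8 genes. It ranged from 1659 to 2184 TPM in CTL (median 1999 TPM), from 1573 to 2094 TPM in LB (median 1880 TPM) and from 1654 to 2204 TPM in UPS (median 1927 TPM). The groups overlapped widely, and 13 of 16 LB pups were below the CTL median. The difference from CTL was -0.083 in LB (standard error 0.033) and -0.012 in UPS (95% interval -0.082 to 0.058, limma adjusted p = 0.86). Between LB and UPS, it was -0.071 (95% interval -0.14 to 0.00074, limma adjusted p = 0.40). Sparcl1 exceeded Sparc by a median ratio of 4.05 in CTL, 4.28 in LB and 4.33 in UPS.

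All 8 genes of the SPARC family were tested. Of the 6 other than Sparc and Sparcl1, only Fstl1, a secreted follistatin-like glycoprotein, passed in LB, as higher. Fstl1 averaged 45.7 ± 3.80 TPM in CTL, 53.8 ± 6.08 TPM in LB and 49.9 ± 6.27 TPM in UPS. Its difference was 0.23 in LB (limma adjusted p = 0.0064) and 0.12 in UPS (limma adjusted p = 0.15). None of the 8 passed in UPS. The family's median difference was -0.019 in LB and 0.018 in UPS.

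The means of the 3 glypicans differed in direction, and no test compared the genes with each other. The LB and UPS means of Gpc4 and Gpc5 lay below those of CTL and the means of Gpc6 above, and no glypican passed the threshold in UPS. Gpc4, on chromosome X from 52053021 to 52165252, ranged from 20.4 to 27.7 TPM in CTL (median 24.3 TPM), from 20.5 to 26.1 TPM in LB (median 21.9 TPM) and from 17.2 to 25.0 TPM in UPS (median 22.4 TPM). In LB, 15 of 16 pups were below the CTL median though none was below every CTL pup, and in UPS 12 of 15 were below the median and 4 below every CTL pup. The difference of Gpc4 was -0.12 in LB (standard error 0.041) and -0.14 in UPS (standard error 0.051, limma adjusted p = 0.079). Under scaling by median ratios, Gpc4 passed the threshold in UPS (-0.14, limma adjusted p = 0.046). It also passed in UPS with all 46 libraries in one fit (limma adjusted p = 0.045). Gpc4 did not pass in UPS under the other 10 of 12 settings (limma adjusted p up to 0.16). Nor did it pass with any of the 30 pups left out (limma adjusted p from 0.0501 to 0.13).

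Gpc5 and Gpc6 are neighbours on chromosome 14, Gpc5 from 115092215 to 116525179 and Gpc6 from 116925315 to 117976544. Gpc5, a glypican of astrocytes, ranged from 33.6 to 43.4 TPM in CTL (median 40.8 TPM), from 30.5 to 42.2 TPM in LB (median 37.1 TPM) and from 32.6 to 42.3 TPM in UPS (median 38.0 TPM). The groups overlapped, with 14 of 16 LB pups and 11 of 15 UPS pups below the CTL median. Its difference was -0.093 in LB (standard error 0.040) and -0.064 in UPS (95% interval -0.14 to 0.012, limma adjusted p = 0.27).

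Gpc6, which recruits AMPA receptors as Gpc4 does, ranged from 4.34 to 7.95 TPM in CTL (median 5.61 TPM), from 4.43 to 8.17 TPM in LB (median 6.38 TPM) and from 4.13 to 8.82 TPM in UPS (median 6.25 TPM). Its difference was 0.13 in LB (standard error 0.079) and 0.12 in UPS (95% interval -0.040 to 0.27, limma adjusted p = 0.34). The UPS value averaged a female and a male difference of opposite sign. Among females, Gpc6 averaged 5.71 ± 1.08 TPM (SD, n = 9) for CTL and 7.20 ± 1.24 TPM (SD, n = 7) for UPS, a difference of 0.29 (standard error 0.11). Among males, it averaged 5.73 ± 0.680 TPM (SD, n = 6) for CTL and 5.48 ± 0.915 TPM (SD, n = 8) for UPS, a difference of -0.062 (standard error 0.11). The test of that gap gave -0.35 for males minus females (standard error 0.15, limma unadjusted p = 0.027, adjusted p = 0.96), so it did not pass. No gene passed a test of rearing by sex, with 293 genes for LB and 488 genes for UPS at an unadjusted limma p under 0.05.

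None of the 6 glypicans passed in UPS, and Gpc1, Gpc2 and Gpc3 did not pass in LB. Their median difference was -0.0011 in LB and -0.11 in UPS. Of the 15 listed glypican partners and AMPA receptor genes, none passed in LB. Nptx2, a neuronal pentraxin that clusters AMPA receptors, passed in UPS, at 39.4 ± 7.11 TPM in CTL and 47.0 ± 7.76 TPM in UPS (0.20, limma adjusted p = 0.047). Gria1, the AMPA receptor subunit that glypicans draw to the surface, did not pass (0.016 in LB with a limma adjusted p of 0.78, and 0.041 in UPS with 0.45). The median difference of the 15 genes was 0.022 in LB and 0.041 in UPS.

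Chrdl1, on chromosome X from 143285674 to 143394262, encodes a secreted BMP antagonist of astrocytes and was the most variable of the 8 genes. It ranged from 1.23 to 6.47 TPM in CTL (median 3.48 TPM), from 2.87 to 7.46 TPM in LB (median 5.18 TPM) and from 2.01 to 9.30 TPM in UPS (median 3.75 TPM). In LB, 14 of 16 pups were above the CTL median but only 2 were above every CTL pup, and in UPS 11 of 15 were above the median and 1 above every CTL pup. The mean of Chrdl1 in CTL was 3.47 ± 1.25 TPM (SD, n = 15), that in LB 4.97 ± 1.26 TPM (SD, n = 16) and that in UPS 4.30 ± 1.74 TPM (SD, n = 15). The ratio of mean TPM was 1.43 for LB over CTL and 1.24 for UPS over CTL. The LB difference was 0.44 (standard error 0.13), the 54th largest increase. It lay from 0.41 to 0.55 under 12 other settings and from 0.38 to 0.52 with 1 pup left out. In UPS, the difference was 0.24 (95% interval -0.073 to 0.55, limma adjusted p = 0.32), and between LB and UPS it was 0.20 (95% interval -0.073 to 0.48, limma adjusted p = 0.54). The highest UPS value belonged to the female UPS pup 6, the next highest UPS pup being at 5.98 TPM. With 1 pup left out, the UPS difference from CTL lay from 0.16 to 0.32 and did not pass.

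**Figure D3:**
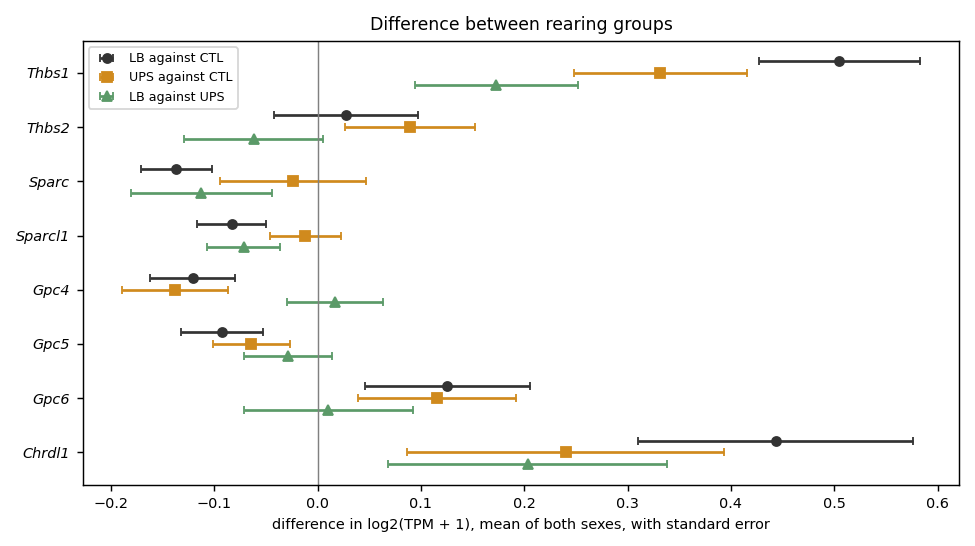
Difference in log2(TPM + 1) between rearing groups for the 8 genes, the mean of the female and the male difference, with its standard error, for LB against CTL (circles), UPS against CTL (squares) and LB against UPS (triangles). Thbs1 lies at 0.50 in LB and 0.33 in UPS, and Chrdl1 at 0.44 and 0.24 with wider errors.

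Chrd, encoding the BMP antagonist chordin, went the other way from Chrdl1. It averaged 29.1 ± 4.48 TPM in CTL, 22.9 ± 5.83 TPM in LB and 22.1 ± 5.15 TPM in UPS, and fell by 0.37 in LB (limma adjusted p = 0.0079) and by 0.44 in UPS (limma adjusted p = 0.0019). The ligand Bmp7 rose in LB (0.22, limma adjusted p = 0.046) and was at -0.060 in UPS (limma adjusted p = 0.68). The receptors Bmpr1a and Bmpr2 passed in UPS, at 0.12 (limma adjusted p = 0.0075) and 0.24 (limma adjusted p = 0.0043). In LB, they were at 0.039 (limma adjusted p = 0.41) and 0.11 (limma adjusted p = 0.11). Of the 15 genes listed for chordins and BMP signalling, 11 were tested. In UPS, 2 passed as higher and 1 as lower, and in LB 1 of the 10 other than Chrdl1 passed in each direction. Over the 11 genes, the median difference was 0.046 in LB and -0.0026 in UPS.

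Among 19 other glial factors that act on synapses, 18 were tested. In LB, 3 passed as higher and 1 as lower, against 3.71% and 3.84% of all genes. In UPS none passed, against 10% of all genes. The chondroitin sulfate proteoglycan Ncan rose from 176 ± 18.7 TPM in CTL to 217 ± 37.9 TPM in LB (0.28, limma adjusted p = 0.012). The matrix glycoprotein Tnc rose from 12.4 ± 1.96 TPM to 16.7 ± 4.77 TPM (0.37, limma adjusted p = 0.035), and the secreted growth factor Ptn from 478 ± 52.7 TPM to 551 ± 73.3 TPM (0.21, limma adjusted p = 0.034). Hepacam, an adhesion molecule of astrocytes, fell from 92.0 ± 4.74 TPM to 86.0 ± 5.06 TPM (-0.10, limma adjusted p = 0.025). The median difference of the 18 genes was 0.0082 in LB and 0.025 in UPS, near that of all genes tested. Between LB and UPS, no gene of these lists passed.

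**Figure D4:**
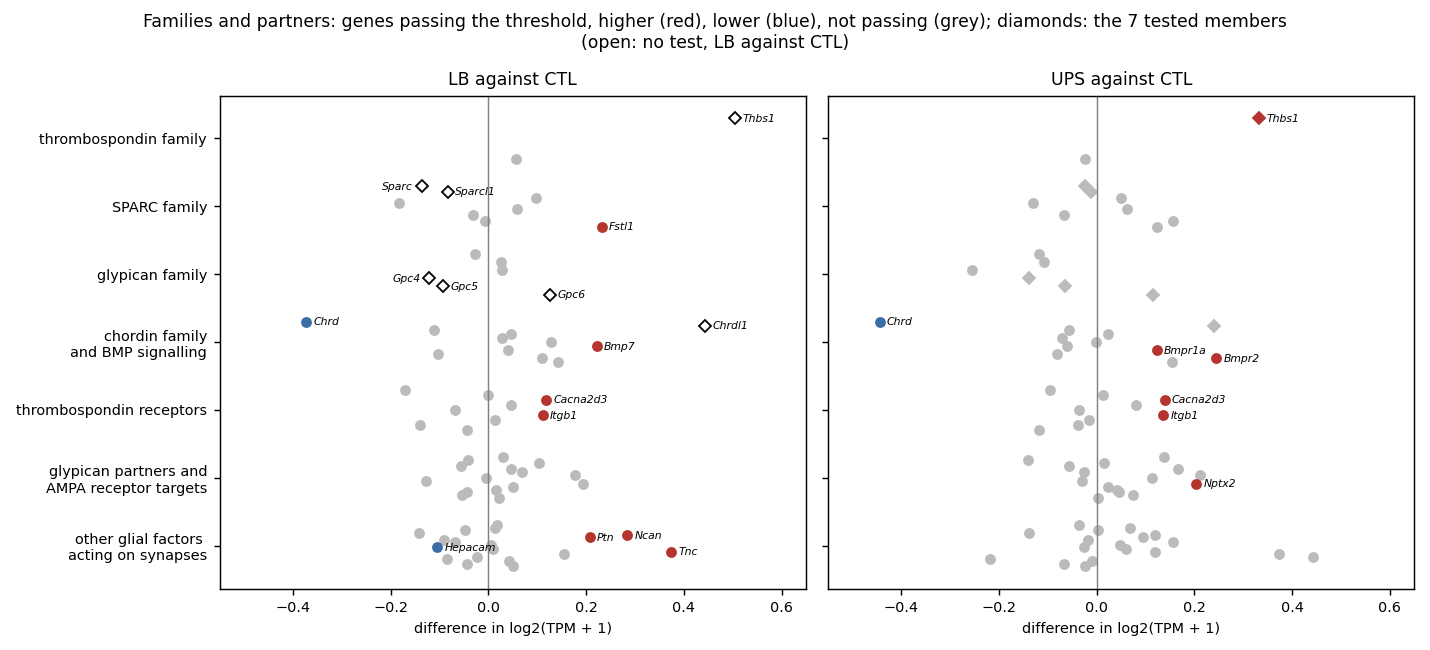
Difference in log2(TPM + 1) of LB against CTL (left) and UPS against CTL (right) for each tested gene of 7 lists of families and partners, with genes past the threshold in red (higher) or blue (lower), others in grey, and the 7 tested members as diamonds, open in the left panel, where they have no test. Cacna2d3, Itgb1 and Chrd are past the threshold in both panels, and Ncan, Tnc, Ptn and Hepacam in the left one alone.

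In whole tissue, fewer cells of a type and less RNA per cell cannot be told apart. Astrocyte markers, 10 of which were tested, summed to 3358 to 4258 TPM in CTL, 3223 to 4070 TPM in LB and 3042 to 4109 TPM in UPS. In LB, Aqp4 passed as higher (0.20) and Aldoc (-0.21) and S100b (-0.30) as lower. In UPS, Aldoc (-0.15) and Sox9 (-0.22) passed as lower. None of the markers of endothelial cells, pericytes, meninges, choroid plexus, microglia or oligodendrocyte progenitors passed in LB or UPS. The median difference in LB was 0.21 for meninges and 0.31 for choroid plexus, whose summed level varied from 8.71 to 2597 TPM between pups. The microglia marker Cx3cr1 averaged 12.7 ± 10.5 TPM in CTL, 25.4 ± 19.0 TPM in LB and 26.7 ± 19.2 TPM in UPS. Its difference was 0.73 in LB (limma adjusted p = 0.14) and 0.90 in UPS (limma adjusted p = 0.056). The median difference of the 7 microglia markers was -0.0040 in LB and 0.016 in UPS. Of the 7 neuron markers, none passed in LB, and in UPS Neurod6 alone passed, as higher (0.16, limma adjusted p = 0.024). Of the 5 blood markers, 1 passed as higher in LB and 3 in UPS. Mature oligodendrocyte markers passed as lower in 7 of 7 genes in LB and 6 of 7 in UPS, with median sums of 3407 TPM in CTL, 1723 TPM in LB and 2569 TPM in UPS. The part of these cell types in the values of the 8 genes was not tested.

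Between the sexes, 3 of the 7 tested members passed the threshold, Sparcl1, Gpc5 and Sparc, each lower in males. Library batches were not modelled, and a batch that followed sex could not be told apart from sex. In this comparison, 50.1% of all genes tested passed, 22.6% as higher and 27.5% as lower in males, so 3 of 7 is near the background. Sparcl1 ranged from 1573 to 2204 TPM in the 25 females (median 2009 TPM) and from 1652 to 2073 TPM in the 21 males (median 1823 TPM). Its difference was -0.15 (standard error 0.028, limma adjusted p = 3.5e-05). Gpc5 ranged from 31.6 to 43.4 TPM in females (median 41.4 TPM) and from 30.5 to 40.8 TPM in males (median 36.7 TPM), a difference of -0.13 (standard error 0.032, limma adjusted p = 0.0011). Sparc ranged from 401 to 928 TPM in females (median 462 TPM) and from 383 to 520 TPM in males (median 445 TPM). The Sparc difference was -0.15 (limma adjusted p = 0.0093), and -0.11 without the female UPS pup 2 (limma adjusted p = 0.0017). In all 3 genes, the ranges of the sexes overlapped. The LB and CTL females numbered 9 carry an earlier name in the form of the male libraries. In that order, they were at 1573 and 1944 TPM for Sparcl1, 31.6 and 38.2 TPM for Gpc5, and 434 and 449 TPM for Sparc. All 3 genes passed under each of 10 other settings, among them leaving these pups out. Whether a batch followed the earlier names was not tested. The X-linked genes Gpc4 and Chrdl1 were at -0.0031 (95% interval -0.079 to 0.073) and 0.0035 (95% interval -0.23 to 0.24), with limma adjusted p-values of 0.95 and 0.98.

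Correlation between pups passed in 2 of 28 pairs of the 8 genes. After the mean of each rearing and sex group was taken from log2(TPM + 1), all 28 pairs were correlated over the 46 pups, with 100000 permutations within groups and adjustment over the 28 pairs. The pair Sparcl1 and Gpc5 passed with Pearson's r = 0.77 and Spearman's rho = 0.69, each with a permutation p of 1e-05 and an adjusted p of 0.00028, the smallest that these permutations can give. Without the 2 pups farthest from the median of Sparcl1, r was 0.67. It was 0.88 in females and 0.75 without the female UPS pup 2, and the pair passed in each of these checks. In males alone r was 0.63 and the pair did not pass (adjusted permutation p = 0.081). With median ratio scaling r was 0.78, and without the pups numbered 9 it was 0.69. Both genes were among the higher transcripts, and all genes of a library share its scale.

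Sparc and Gpc6 were negatively correlated between pups, with r = -0.42 and rho = -0.44 (permutation p = 0.00093 and adjusted p = 0.013 for r, adjusted p = 0.034 for rho). The pair passed by rank but not in 4 other checks. Without the 2 pups farthest from the median, r was -0.36 (adjusted permutation p = 0.12). In females r was -0.42 (adjusted permutation p = 0.10), in males -0.45 (adjusted permutation p = 0.30), and without the female UPS pup 2 it was -0.42 (adjusted permutation p = 0.089). With median ratio scaling r was -0.39, and without the pups numbered 9 it was -0.42. The count of passing pairs stayed the same in 3 of 6 other settings, namely these and the ranks. The other 26 pairs did not pass. Thbs1 and Thbs2 were at r = -0.0035 (adjusted permutation p = 0.98), and Thbs1 and Chrdl1, the members with the highest LB differences, at r = 0.21 (adjusted permutation p = 0.41).

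**Figure D5:**
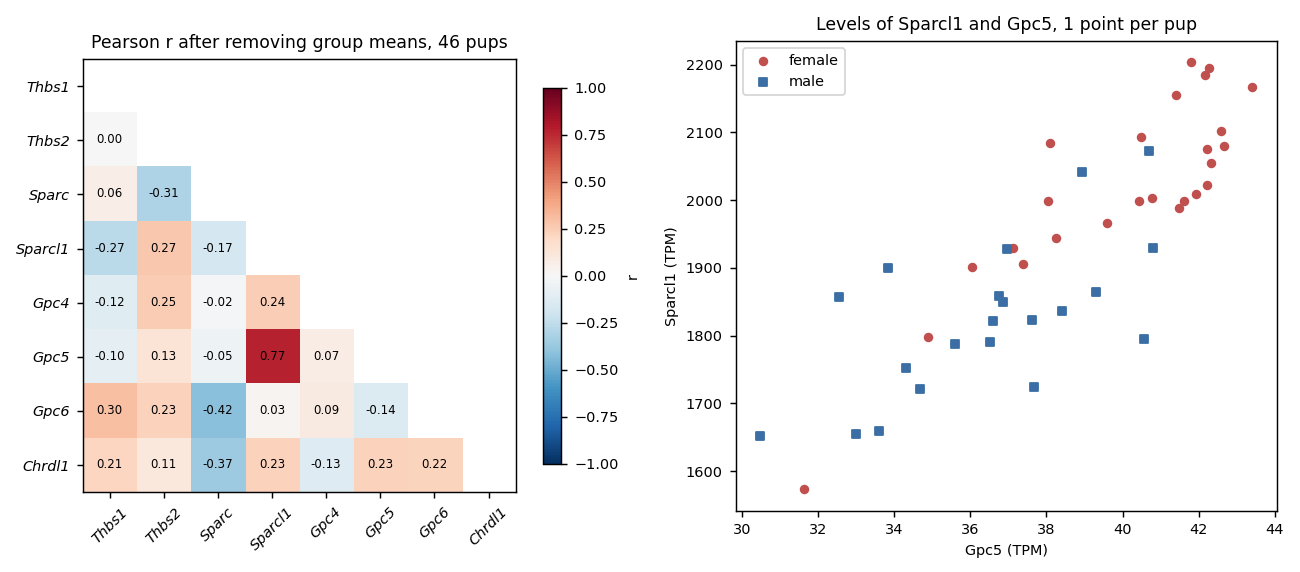
Left, Pearson's r of each pair of the 8 genes over 46 pups after group means were taken away. Right, Sparcl1 against Gpc5 in TPM, 1 point per pup, females as red circles and males as blue squares. Sparcl1 and Gpc5 are at r = 0.77, with 0.88 in females and 0.63 in males, where the pair did not pass. Thbs1 and Thbs2 are at r near 0. The right panel keeps the group means.

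Likeness was also ranked over all genes tested, as a description over 46 pups and with no test, since all genes share the scale of a library. The genes most like Thbs1 were Mkrn3 (r = 0.75), Sox4 (r = 0.72) and Gprin1 (r = 0.72). Without the female UPS pup 2, they were Cxadr, Mkrn3 and Doc2a. Nearest to Chrdl1 were Lbh (r = 0.75), Nrep (r = 0.74) and Lurap1 (r = 0.73). Nearest to Sparcl1 were Sec62 (r = 0.82), Tceal8 (r = 0.81) and Sdha (r = 0.79), and Gpc5 had Sparcl1 (r = 0.77), Tceal8 (r = 0.72) and Gabra4 (r = 0.70). Nearest to Sparc were Rasgef1a (r = 0.85), Anln (r = 0.84) and B330016D10Rik (r = 0.84), of which Rasgef1a alone remained among the first 3 without the female UPS pup 2. The highest values were lower for Thbs2 (Myoc, r = 0.69), Gpc4 (Pfkm, r = 0.66) and Gpc6 (Ptchd1, r = 0.65).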

How the data were processed

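Total RNA of the left hippocampus was made into KAPA mRNA libraries, and per the labels the authors aligned reads with HISAT2 to mm10 and obtained TPM with StringTie. The sources used here give no tool versions. The authors deposited TPM per gene for 46 libraries. The series also holds tables of the authors' own DESeq2 comparisons (fold changes and p-values), which were not used. The row of Cav2, which holds text in place of 1 number, was left out.

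The 8 genes and all gene lists were chosen with earlier results of these data known. Groups of rearing and sex follow the labels. A gene was tested where its mean in any rearing group reached 3 TPM. The test was run in limma 3.58.1 (R 4.3.3) on log2(TPM + 1), with a mean for each rearing and sex group of the 2 rearing groups compared, a variance trend and Benjamini-Hochberg adjustment at 0.05 over all genes tested. A rearing difference is the mean of the female and the male difference. The sex comparison used all 46 libraries. Scripts were tested on simulated data. Correlations used Python 3.11.15 with numpy 2.4.6 and scipy 1.17.1. The rule for named genes takes all 8 members, every listed family or partner gene that passed in a rearing comparison, the 2 smallest p-values of each list and the 3 genes most like each member, and not all it gives are printed. The list of the partners of hevin is not reported here. Gria1, Cacna2d1, Thbs4 and Comp were named outside it, for their role. Coordinates and sequences come from GENCODE M21 (GRCm38, the same assembly as mm10), in which 99.72% of gene identifiers were found. The alternatives were pseudocounts of 0.1 and 0.5, no filter, a minimum of 1 TPM, median ratio scaling, mitochondrial genes left out, the sample number as a block, array weights, no variance trend, 1 fit of all 46 libraries, a fit of rearing alone, the pups numbered 9 left out, and each library left out. Correlations and likeness without the female UPS pup 2 were added after the data were seen.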

Additional observations from a re-analysis of the deposited data

Results flagged for a closer look

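In each rearing and sex group, the highest and lowest pup of each of the 8 genes was compared with the nearest other pup. Of 48 groups, 5 held a pup whose gap to the rest exceeded Dixon's critical value, and chance gives about 1 in 20. Sparc was at 927.84 TPM in the female UPS pup 2, against 526 TPM in the next pup of its group. Sparcl1 was at 1573 TPM in the female LB pup 9, against 1902 TPM in the next lowest. The female CTL pup 4 had Gpc6 at 7.95 TPM, against 6.12 TPM in the next. In the male CTL pup 5, Gpc6 was at 7.08 TPM, against 5.63 TPM, and Chrdl1 at 6.47 TPM, against 3.73 TPM. The header of the table gives the LB and CTL females numbered 9 an earlier name, in the form that the male libraries carry. Their Xist was at 138 and 113 TPM, against at most 0.0319 TPM in the male libraries, and they were kept as female. The authors' paper gives other counts of males and females for CTL and LB than those used here.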

How the results depend on the processing

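In UPS, Thbs1 stayed past the threshold under all 12 other settings and with each pup left out (0.30 to 0.44). Its highest limma adjusted p was 0.048 under the settings and 0.027 with a pup left out. The CTL pups are shared with the LB comparison that chose Thbs1, and it reached the minimum of 3 TPM only in LB and UPS. The LB differences of the 8 genes have no test, and that of Thbs1 lay from 0.48 to 0.66. With the sample number as a replicate block, 967 genes passed in LB and 1077 in UPS, and Thbs1 was at 0.48 and 0.33. Same-numbered pups deviated together only weakly, with a median r of 0.038 over 102 pairs, 21 of them over 0.1. Pups that differed in group and number had a median r of -0.0056. The highest r of a same-numbered pair, 0.33, was that of the CTL and LB females numbered 9. The numbers were not taken as pairs. In place of 999 genes in LB, 1676 passed with array weights, 579 with rearing alone and 677 to 1581 with a pup left out, the most without the male LB pup 5. In place of 1329 in UPS, 2626 passed with array weights, 254 with rearing alone and 913 to 2169 with a pup left out, the most without the female UPS pup 2. Between LB and UPS, 6 genes became 14 without mitochondrial genes, 98 with array weights, 1 with rearing alone, 24 with all 46 libraries in one fit and 4 to 22 with a pup left out. Rearing by sex in UPS gave 0 to 1 genes with a pup left out. Of the member pairs, 2 passed, against 1 in females, 0 in males, 1 without the 2 farthest pups and 1 without the female UPS pup 2.

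Sparc in UPS passed with array weights (-0.10, limma adjusted p = 0.049). Sparcl1 in UPS became 0.012 with array weights and -0.028 to 0.0042 with a pup left out. Between LB and UPS, Gpc4 became -0.0029 without mitochondrial genes, -0.0028 with array weights and -0.0056 to 0.032 with a pup left out. Gpc6 became -0.0079 without mitochondrial genes, -0.035 with the block, -0.042 with array weights, -0.011 without the pups numbered 9 and -0.015 to 0.036 with a pup left out. Between sexes, Gpc4 became 0.0074 with median ratio scaling, 0.0054 with array weights and 0.0020 without the pups numbered 9, and Chrdl1 became -0.017 without mitochondrial genes and lay from -0.029 to 0.0087 with the female UPS pup 2 or pup 1 left out. The cause of these changes was not tested. TPM values keep no read counts, so the precision of the low genes Thbs1, Thbs2 and Chrdl1 is known only from the spread between pups.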
